A study of Homo sapiens with 18 samples.

Results

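Before a cell divides it copies its DNA once, and the genes described here encode the proteins that do this. The origin recognition complex marks the start sites and, with CDC6 and CDT1, loads the ring of MCM2 to MCM7. CDC45 and the GINS complex turn that ring into the moving helicase, the polymerases copy the strands with the help of the PCNA clamp and its loader RFC, FEN1 and LIG1 join the fragments of the lagging strand, and thymidylate and deoxynucleotide enzymes supply the building blocks. Many of these genes are transcribed as cells pass from G1 into S phase, where E2F factors are known regulators, and cancer lines that divide rapidly express them at readily measured levels.

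The set of 45 DNA replication and nucleotide synthesis genes was chosen by gene symbol and divided into 7 subgroups by role. Earlier results of these data were known when it was chosen, so the counts of lower members below are not an independent test of the set. Of the 45 genes, 43 passed the filter of more than 100 counts summed over all libraries and were tested among 10212 targets. RPA3 was listed at 0 counts in all 18 libraries and PRIM2 matched no target by symbol, so that neither was tested. The tested members had between 566 counts (POLE2) and 26737 counts (POLD2) in all libraries together.

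RKO, an established human colorectal carcinoma line, was transfected with 30 nM siRNA in 6 groups of 3 replicates and collected 72 h later. Tsg101 was targeted by siTsg101#1 or siTsg101#2 and Vps28 by siVps28#1 or siVps28#2, and the control cells received siCtrl#1 or siCtrl#2, which target no gene. Tsg101 and Vps28 are subunits of ESCRT-I, a complex that sorts membrane proteins for degradation in lysosomes. All cells came from this 1 line and all were transfected, and untransfected cells were not part of these comparisons. The replicate number of each library is also its batch, and every batch holds 1 library of each group. Fewer cells in S phase and less RNA per cell cannot be told apart in bulk RNA.

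Each library held between 2561790 and 7466916 counts on targets. The siTsg101#2 libraries (6225509 to 6586916) and the siVps28#2 libraries (6138271 to 6300561) were deeper than all siCtrl#2 (4028242 to 5249774) and all siVps28#1 libraries (3602108 to 4794659), while siCtrl#1 (3553207 to 6352155) and siTsg101#1 (2561790 to 7466916) covered wide ranges. The targeted mRNAs were low where the labels said so. TSG101 was at 118 ± 40.1 normalized CPM (counts scaled to the size of each library; mean ± SD, n = 3) with siCtrl#1, 3.90 ± 0.761 with siTsg101#1 and 3.43 ± 1.36 with siTsg101#2. VPS28 was at 103 ± 13.3 CPM with siCtrl#1, 5.68 ± 2.15 with siVps28#1 and 6.11 ± 1.17 with siVps28#2. Of 7 epithelial markers, KRT8, KRT18, EPCAM and CDX2 passed the filter, whereas CDH1 was at 0, KRT19 held 1 count and VIL1 held 6 counts in all libraries. The 7 markers summed to 128 to 139.7 CPM with siCtrl#1, 125.5 to 150.9 CPM with siCtrl#2 and 92.7 to 139 CPM with the on-target siRNAs. Among 9 markers of other cell types, PTPRC, CD3E, CDH5, COL1A2 and ALB were at 0, and the list without CD68, which encodes a lysosomal protein, summed to at most 1.47 CPM. With CD68 the list summed to 473 to 692 CPM with siCtrl#1, 785 to 987 CPM with siCtrl#2 and 658 to 1678 CPM with the on-target siRNAs.

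The stretch of DNA before a gene start shows the letters that regulators of S phase genes can read. The 250 bases before the start were searched on both strands for an E2F-type octamer (TTTCCCGC, TTTCGCGC, TTTGCCGC or TTTGGCGC), for CCAAT, and for TTTGAA, a core of elements found in cell cycle genes. They are shown for the 3 members with the smallest p-value for the mean change (MCM10, UHRF1 and MCM3), and for MCM6, which was added after its letters had been seen because it held the most octamers. Sequences are from RefSeq on GRCh38.p14, written 5′ to 3′ on the gene's own strand, with octamers in capitals. The windows are chr10:13161308-13161557 on the plus strand for MCM10, chr6:52284743-52284992 on the minus strand for MCM3, chr19:4909251-4909500 on the plus strand for UHRF1, which is the first of 3 starts listed for it, and chr2:135876444-135876693 on the minus strand for MCM6.
MCM10: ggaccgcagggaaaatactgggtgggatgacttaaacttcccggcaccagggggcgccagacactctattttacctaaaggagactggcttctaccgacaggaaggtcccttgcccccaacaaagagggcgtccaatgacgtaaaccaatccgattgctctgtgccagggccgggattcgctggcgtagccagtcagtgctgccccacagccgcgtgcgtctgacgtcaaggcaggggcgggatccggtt
MCM3: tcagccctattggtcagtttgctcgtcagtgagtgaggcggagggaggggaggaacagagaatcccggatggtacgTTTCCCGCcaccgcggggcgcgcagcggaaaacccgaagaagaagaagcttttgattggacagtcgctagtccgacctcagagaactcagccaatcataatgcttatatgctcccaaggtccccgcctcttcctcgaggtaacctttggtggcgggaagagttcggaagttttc
UHRF1: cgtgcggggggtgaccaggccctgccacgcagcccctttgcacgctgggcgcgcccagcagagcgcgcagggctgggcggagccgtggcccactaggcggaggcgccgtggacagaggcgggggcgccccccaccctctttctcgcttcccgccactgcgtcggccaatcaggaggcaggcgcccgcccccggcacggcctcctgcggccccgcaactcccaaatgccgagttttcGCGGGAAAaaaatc
MCM6: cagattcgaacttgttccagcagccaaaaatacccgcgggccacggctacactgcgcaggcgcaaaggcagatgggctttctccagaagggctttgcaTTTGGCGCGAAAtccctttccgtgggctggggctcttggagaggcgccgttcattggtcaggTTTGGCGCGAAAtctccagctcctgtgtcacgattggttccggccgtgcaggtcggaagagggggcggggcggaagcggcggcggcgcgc

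MCM3 and this UHRF1 window each held 1 octamer, MCM6 held 4 in 2 overlapping pairs, and MCM10 held none. In UHRF1 the octamer is read on the opposite strand. Of the 38 tested members with a RefSeq window, 13 (34.2%) held at least 1 octamer, against 3.4% of 27305 genes with a window and 5.98% of the 8432 genes among them that were tested. A gene with several listed starts counted once. CCAAT stood in 25 of the 38 members (65.8%), in 37% of all genes and in 42.4% of the tested genes. TTTGAA stood in 1 member (RRM1, 2.63%), in 16.1% of all genes and in 11.5% of the tested genes. The octamer stood in 13 of the 30 members that were lower on average after depletion and in 0 of the 8 that were not called. CCAAT stood in 19 of these 30 and in 6 of these 8. The 8 are few and depend on the fit, as MCM2 and RRM2 among them were called lower with the replicate number as a block. The octamer share among all targets called lower was not computed, and a link between octamer and change was not tested. These matches describe letters and not bound sites.

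The question of the main comparison was whether replication gene mRNAs differed after depletion of either ESCRT-I subunit. Averaged over the on-target siRNAs and set against siCtrl#1, 35 of 43 members were lower and 0 higher (edgeR quasi-likelihood test, adjusted p under 0.05), where 11.5% of all tested targets were lower and 12.2% higher. The median log2 change of the members was -0.89, and that of all tested targets was -0.0035. Of the 43 members, 42 were lower in sign, RFC5 being the exception, against 50.3% of all targets. At an unadjusted p under 0.05 the number higher was still 0. DESeq2 called 36 lower and 0 higher, where 11.8% of all targets were lower. With the replicate number as a block 37 were lower (13.4% of all targets), MCM2 and RRM2 being added. Single siRNAs gave 31 lower members with siTsg101#1 (12.5% of all targets), 27 with siTsg101#2 (9.09%), 23 with siVps28#1 (4.07%) and 34 with siVps28#2 (6.85%). The median log2 changes were -0.91, -0.82, -0.85 and -1.01 in the same order. The siVps28#1 libraries, with the fewest calls in this fit, were all shallower than the siVps28#2 libraries. The part of depth in these counts was not tested. With the replicate number as a block the counts were 32, 33, 33 and 36 in the same order (14.4%, 11.4%, 5.57% and 8.63% of all targets). RFC5 was the 1 member called higher with each siTsg101 siRNA (13.8% and 11.6% of all targets). No member was higher with siVps28#1 (5.38% of all targets) or siVps28#2 (8.11%), at an unadjusted p under 0.05 or in DESeq2 either.

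All 4 of these comparisons share the 3 siCtrl#1 libraries. Called lower with every on-target siRNA were 20 members, namely ORC1, ORC6, CDC6, CDT1, MCM3, MCM4, MCM5, MCM6, MCM7, MCM10, GINS2, POLE, POLD1, FEN1, LIG1, TYMS, TK1, CHAF1A, CHAF1B and UHRF1, against 1.84% of all targets. With the replicate number as a block 28 members were (2.71% of all targets), CDC45, GINS4, POLA2, PRIM1, PCNA, RFC2, RFC4 and CLSPN being added. In the fit without the block a further 6 members were lower with 3 siRNAs, 6 with 2, 5 with 1 and 6 with none. The largest negative log2 change fell to siVps28#2 for 20 members, to siTsg101#1 for 14, to siTsg101#2 for 5 and to siVps28#1 for 4. These counts moved with single libraries. The number lower with siTsg101#1 was 18 without its replicate 3 (802 of all 10158 targets tested). With siTsg101#2 the number lower was 17 without siCtrl#1 replicate 1 (680 of 10192). With siVps28#1 it was 13 without its replicate 3 (218 of 10191) and 15 without siCtrl#1 replicate 2 (215 of 10200). The number lower with all 4 was 13 without siVps28#1 replicate 3 and 12 without siCtrl#1 replicate 1, where the share of all targets was not computed. Leaving out each of the 18 libraries in turn kept the median of the mean change between -0.98 and -0.77.

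**Figure D1:**
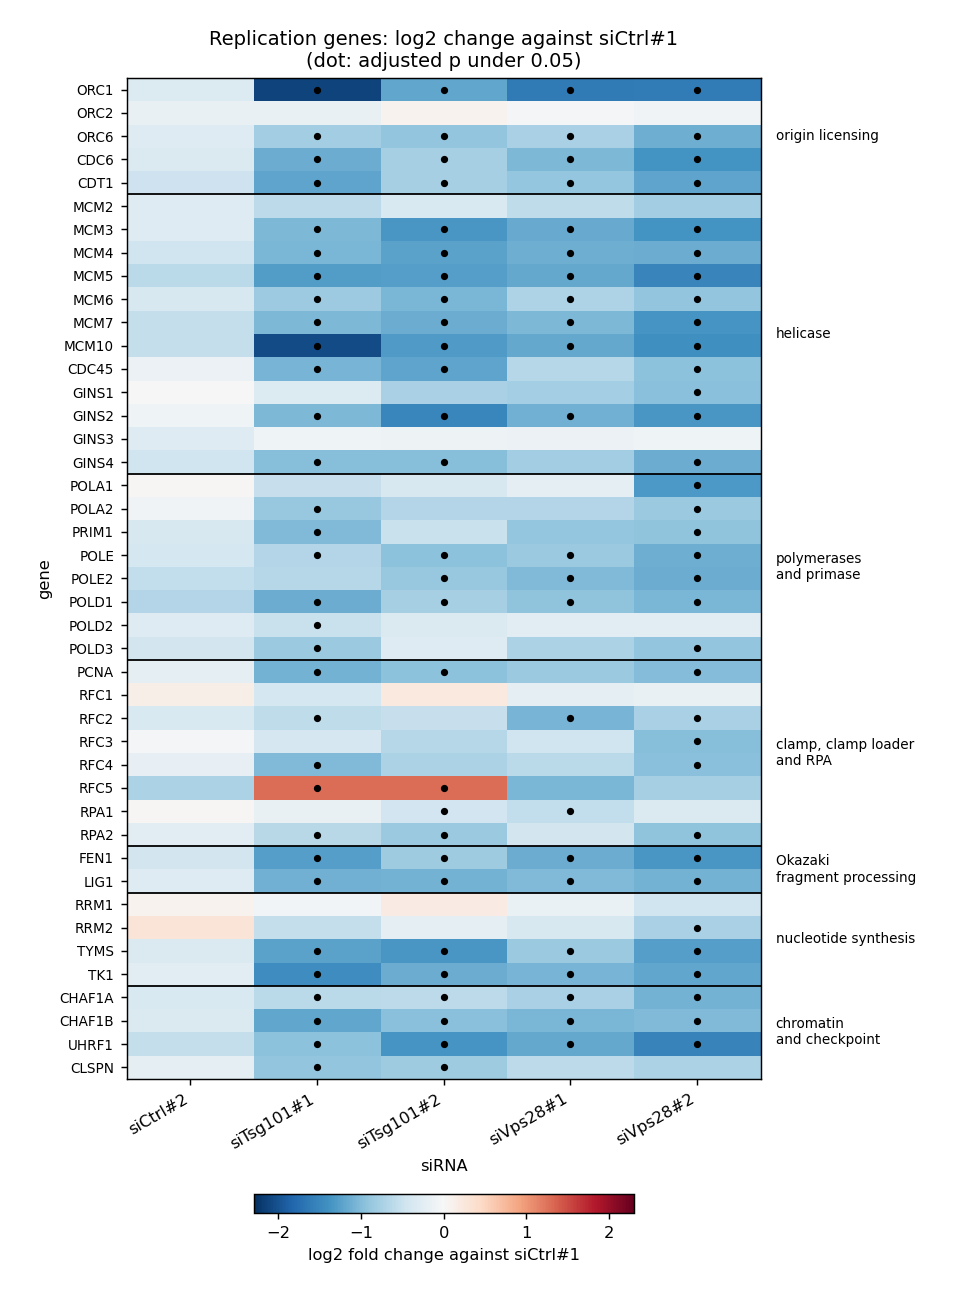
Log2 fold change against siCtrl#1 of the 43 tested members (rows, by subgroup) for siCtrl#2 and the 4 on-target siRNAs (columns), with a dot where the adjusted p was under 0.05. The on-target columns are blue in nearly every row, the siCtrl#2 column is paler with no dot, and RFC5 is red with both siTsg101 siRNAs.

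The nontargeting siCtrl#2 gave the background of another siRNA without an intended target. Against siCtrl#1 it called 0 of the 43 members in edgeR, where 0.715% of all targets were lower and 1.45% higher. At an unadjusted p under 0.05, 8 members were lower and 0 higher, and the share of all targets at that threshold is not given here. DESeq2 called POLD1 lower (1.21% of all targets). The members nevertheless stood below siCtrl#1 with siCtrl#2 as well, with a median log2 difference of -0.30 and 38 of 43 lower in sign, against 50% of all targets. With the replicate number as a block, MCM5 and POLD1 were called lower with siCtrl#2 (1.32% of all targets). Without siCtrl#2 replicate 1 there were 5 (CDT1, MCM5, MCM7, POLD1 and UHRF1), against 1.96% of all targets. The size of the changes depended on the reference. With siCtrl#2 as the reference the mean of the on-target siRNAs was lower for 27 members (7.91% of all targets) with a median of -0.60, and RFC5 was higher (8.33% of all targets). Single siRNAs then gave 15 lower members with siTsg101#1 (8.42% of all targets), 15 with siTsg101#2 (7.48%), 6 with siVps28#1 (1.79%) and 22 with siVps28#2 (4.65%). GINS2, MCM3 and TK1 were the 3 members lower with all 4 (0.588% of all targets). Of the 35 members called lower against siCtrl#1, 9 were not called with siCtrl#2 as the reference (GINS4, PRIM1, POLE2, POLD1, POLD3, RFC2, RPA2, CHAF1A and CLSPN). A further 9 were still called with log2 changes smaller by over 1.5 times (CDT1, MCM4, MCM5, MCM6, MCM7, MCM10, POLE, FEN1 and UHRF1). Against both nontargeting siRNAs averaged, 35 members were lower (13.7% of all targets) with a median of -0.70.

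Library by library, all 12 on-target libraries lay below all 6 nontargeting libraries for 4 members (MCM3, MCM10, TK1 and CHAF1B), a pattern seen in 1.19% of all targets. They lay below all 3 siCtrl#1 libraries for 23 members, against 4.84% of all targets. Within the batches the median difference in log2 CPM between the on-target libraries and siCtrl#1 was -1.07, -0.68 and -0.88 in batches 1, 2 and 3, with 42, 42 and 41 of 43 members lower. Between siCtrl#2 and siCtrl#1 it was -0.31, -0.30 and -0.28, and between the on-target libraries and siCtrl#2 it was -0.63, -0.42 and -0.55. In every batch the difference between siCtrl#2 and siCtrl#1 was thus smaller than that between the on-target libraries and siCtrl#2. For each gene the on-target difference from siCtrl#1 is made up of these others, so its place as the largest adds nothing.

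**Figure D2:**
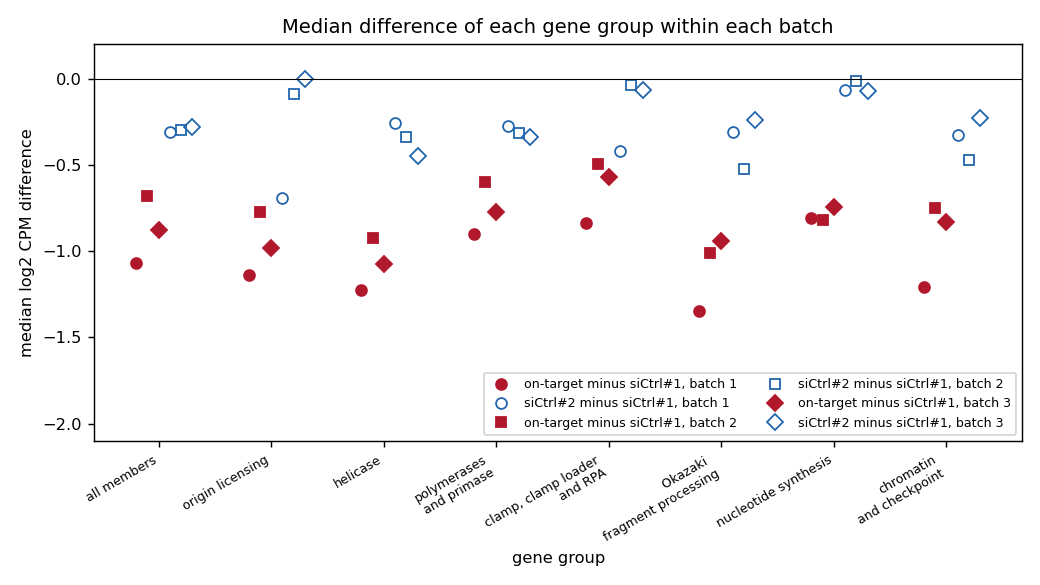
Median difference in log2 CPM of each gene group within batches 1, 2 and 3, for the on-target libraries minus siCtrl#1 (filled) and siCtrl#2 minus siCtrl#1 (open). Over all members the filled symbols lie at -1.07, -0.68 and -0.88 and the open ones between -0.31 and -0.28.

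Origin licensing genes were lower for 4 of 5 members, with a median log2 change of -1.02 over the 4 on-target siRNAs. ORC1, the ATPase subunit of the origin recognition complex, was at 18.8, 17.2 and 14.02 under siCtrl#1, 11.6, 18.8 and 10.02 under siCtrl#2, 3.27, 6.82 and 1.95 under siTsg101#1, 5.30, 11.4 and 4.99 under siTsg101#2, 4.64, 7.44 and 3.89 under siVps28#1, and 5.52, 5.29 and 5.38 under siVps28#2 CPM in replicates 1, 2 and 3, an order kept in every list of values. Its on-target libraries all lay below the siCtrl#1 libraries, and 1 of them, siTsg101#2 replicate 2, lay above the lowest siCtrl#2 library. The mean log2 change was -1.64 ± 0.26 (SE; edgeR adjusted p = 7.37e-05), the most negative among the 43 members, although ORC1 held 8 to 83 counts per library. ORC2, another subunit of the same complex, was at 14.96, 21.2 and 17.1 under siCtrl#1, 9.10, 19.3 and 18.3 under siCtrl#2, 20.1, 13.9 and 13.8 under siTsg101#1, 18.9, 22.4 and 14.3 under siTsg101#2, 22.6, 15.1 and 14.7 under siVps28#1, and 19.5, 14.2 and 16.5 under siVps28#2 CPM. The ORC2 groups overlapped throughout, and its mean log2 change was -0.05 ± 0.21 (edgeR adjusted p = 0.888).

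ORC6, the smallest subunit of the complex, was at 55.5, 39.4 and 40.5 under siCtrl#1, 33.4, 36.9 and 40.5 under siCtrl#2, 24.6, 34.6 and 18.99 under siTsg101#1, 24.96, 25.4 and 22.1 under siTsg101#2, 26.7, 31.9 and 22.4 under siVps28#1, and 23.9, 20.3 and 18.2 under siVps28#2 CPM. CDC6, which joins the complex to load the MCM ring, was at 53.7, 45.8 and 31.8 under siCtrl#1, 24.5, 43.3 and 35.5 under siCtrl#2, 15.96, 28.3 and 15.1 under siTsg101#1, 22.6, 32.5 and 21.9 under siTsg101#2, 15.4, 28.1 and 20.1 under siVps28#1, and 14.5, 19.3 and 16.5 under siVps28#2 CPM. The highest value of both genes was a siCtrl#1 library, and some on-target libraries lay within the siCtrl#2 range. Mean log2 changes were -0.89 ± 0.15 for ORC6 and -1.08 ± 0.20 for CDC6. CDT1, the partner of CDC6 in loading, was at 214, 290.2 and 270.5 under siCtrl#1, 257, 155 and 143 under siCtrl#2, 120.3, 109 and 106 under siTsg101#1, 166, 147 and 143 under siTsg101#2, 127, 137 and 155 under siVps28#1, and 119.9, 114 and 101 under siVps28#2 CPM. Its siCtrl#2 replicate 1 resembled siCtrl#1, and siCtrl#2 replicates 2 and 3 fell within the on-target range. CDT1 changed by -1.02 ± 0.14 on average (edgeR adjusted p = 9.62e-06) and by -0.48 ± 0.18 with siCtrl#2 (edgeR adjusted p = 0.199).

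**Figure D3:**
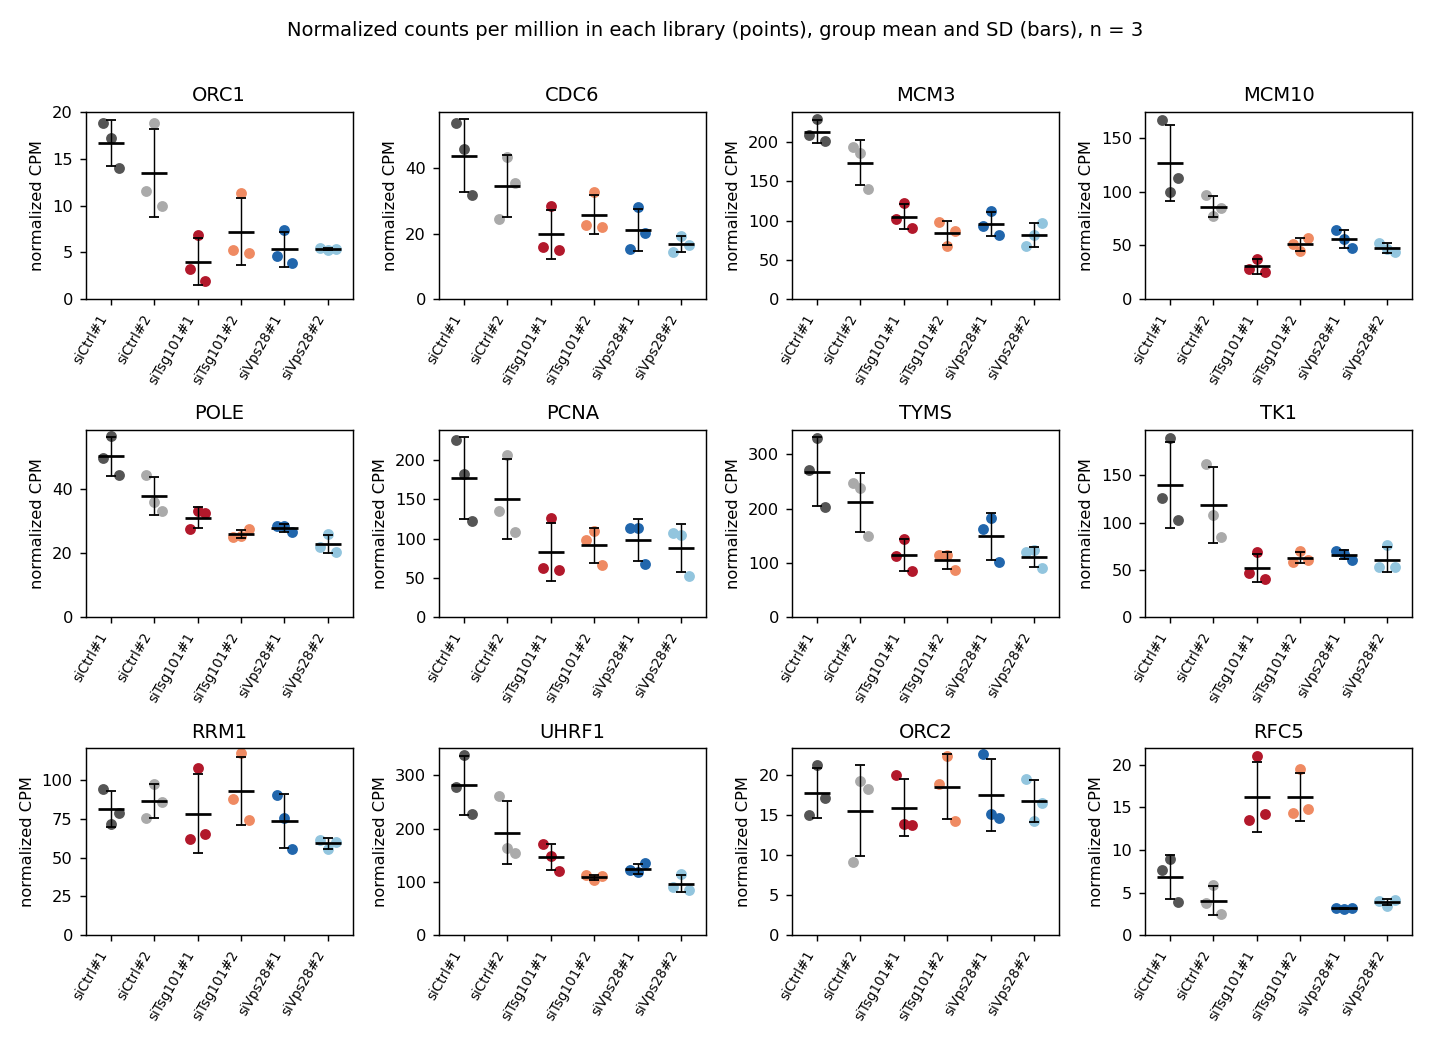
Normalized CPM in each library (points, replicates 1 to 3 from left to right), with group mean (line) and SD (bar, n = 3), for 12 members in the 6 siRNA groups. MCM3, MCM10 and TK1 lie lower in all 12 on-target libraries than in the 6 nontargeting ones, ORC2 overlaps throughout, and RFC5 is high in the 6 siTsg101 libraries.

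Helicase genes were lower for 10 of 12 members, with a median of -1.06, and 7 of them were called with all 4 siRNAs. Of the 6 subunits of the MCM2 to MCM7 ring, which unwinds DNA, all but MCM2 were called with every siRNA. MCM3, on GRCh37 at chr6:52128812-52149679 on the minus strand, was at 209, 229.9 and 201 under siCtrl#1, 194, 186 and 141 under siCtrl#2, 102, 122 and 90.9 under siTsg101#1, 97.7, 67.3 and 86.8 under siTsg101#2, 93.5, 113 and 81.96 under siVps28#1, and 67.2, 81.5 and 96.8 under siVps28#2 CPM. Its highest on-target library (122 CPM) stood below its lowest nontargeting library (140.7 CPM). The mean log2 change was -1.23 ± 0.13 (edgeR adjusted p = 5.63e-07), and single siRNAs gave -1.03 under siTsg101#1, -1.35 under siTsg101#2, -1.15 under siVps28#1 and -1.38 under siVps28#2. With siCtrl#2 the log2 change of MCM3 was -0.30 ± 0.18 (edgeR adjusted p = 0.465).

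MCM4 was at 439, 349 and 335 under siCtrl#1, 258, 326 and 236 under siCtrl#2, 138, 279 and 128 under siTsg101#1, 161, 195 and 122 under siTsg101#2, 190.2, 209.9 and 115 under siVps28#1, and 183, 187 and 136 under siVps28#2 CPM. MCM5 was at 201, 245 and 154 under siCtrl#1, 186, 112 and 91.2 under siCtrl#2, 83.9, 100.2 and 62.3 under siTsg101#1, 78.3, 102 and 67.8 under siTsg101#2, 84.5, 105 and 76.2 under siVps28#1, and 68.5, 85.1 and 55.02 under siVps28#2 CPM. In MCM4 the siTsg101#1 replicate 2 library was above the lower siCtrl#2 libraries. In MCM5 siCtrl#2 replicate 2 lay just above the on-target values and siCtrl#2 replicate 3 within them. MCM6 was at 243, 327 and 234 under siCtrl#1, 214, 236 and 172 under siCtrl#2, 145, 175 and 130.4 under siTsg101#1, 123, 151 and 112 under siTsg101#2, 149.8, 224 and 116 under siVps28#1, and 112, 163 and 154 under siVps28#2 CPM. MCM7, whose exons share 392 bases with an antisense neighbour, was at 479, 520.5 and 406 under siCtrl#1, 414, 303 and 249 under siCtrl#2, 221, 267 and 197 under siTsg101#1, 225, 231 and 184 under siTsg101#2, 224, 236 and 230.1 under siVps28#1, and 161, 228 and 162 under siVps28#2 CPM. In MCM6 siCtrl#2 replicates 1 and 3 lay within the on-target range, and in MCM7 siCtrl#2 replicate 3 did. In these 4 genes every on-target library lay below every siCtrl#1 library. Mean log2 changes were -1.14 ± 0.19 for MCM4, -1.31 ± 0.18 for MCM5, -0.88 ± 0.16 for MCM6 and -1.14 ± 0.14 for MCM7. The siCtrl#2 differences of the same genes were -0.45, -0.62, -0.37 and -0.54, and none was called in edgeR. The mean log2 change of MCM2 was -0.59 ± 0.22 (edgeR adjusted p = 0.0602).

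MCM10, which helps the loaded helicase to start, had the smallest p-value of the set. It lies on GRCh37 at chr10:13203558-13253110 on the plus strand. MCM10 was at 167, 100.2 and 112 under siCtrl#1, 96.8, 77.3 and 84.6 under siCtrl#2, 28.2, 37.8 and 25.3 under siTsg101#1, 51.3, 44.8 and 57.2 under siTsg101#2, 64.5, 55.95 and 48.1 under siVps28#1, and 52.5, 46.8 and 43.6 under siVps28#2 CPM. The 3 siTsg101#1 libraries were the lowest of the 18, and the siCtrl#2 libraries lay between siCtrl#1 and the on-target groups. The mean log2 change was -1.49 ± 0.14 (edgeR adjusted p = 8.02e-08), and with siCtrl#2 it was -0.55 ± 0.19 (edgeR adjusted p = 0.141). MCM10 differed between the siTsg101 siRNAs by -0.75 ± 0.20 (siTsg101#1 minus siTsg101#2; edgeR adjusted p = 0.0196).

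Among the GINS subunits, which bind CDC45 and the ring, GINS1, GINS2 and GINS4 were lower and GINS3 was not called. GINS2 was at 63.7, 54.1 and 36.6 under siCtrl#1, 55.6, 53.2 and 36.04 under siCtrl#2, 26.2, 36.5 and 14.4 under siTsg101#1, 19.2, 18.5 and 16.3 under siTsg101#2, 24.4, 30.7 and 16.2 under siVps28#1, and 22.4, 22.97 and 15.6 under siVps28#2 CPM. The siCtrl#1 and siCtrl#2 values of GINS2 were close, with a siCtrl#2 difference of -0.09 ± 0.27, while its mean change was -1.24 ± 0.21 (edgeR adjusted p = 0.000112). GINS3 was at 21.5, 21.8 and 18.6 under siCtrl#1, 16.4, 16.8 and 16.96 under siCtrl#2, 14.7, 19.7 and 21.8 under siTsg101#1, 24.8, 15.6 and 16.8 under siTsg101#2, 21.2, 20.6 and 14.4 under siVps28#1, and 18.2, 16.2 and 23.6 under siVps28#2 CPM. Every on-target group overlapped both nontargeting groups, although all siCtrl#2 libraries lay below all siCtrl#1 libraries. The mean log2 change of GINS3 was -0.11 ± 0.17 (edgeR adjusted p = 0.684), and 558 of its exon bases are shared with an antisense neighbour. CDC45 changed by -0.97 ± 0.19, GINS1 by -0.70 ± 0.22 and GINS4 by -0.98 ± 0.22. With siCtrl#2 as the reference GINS4 changed by -0.52 (edgeR adjusted p = 0.123).

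Polymerase and primase genes were lower for 7 of 8 members, with a median of -0.80, and POLE and POLD1 were called with all 4 siRNAs, to which the replicate block added POLA2 and PRIM1. POLE, the catalytic subunit of the leading strand polymerase, was at 49.6, 56.6 and 44.5 under siCtrl#1, 44.5, 35.9 and 33.1 under siCtrl#2, 27.4, 33.3 and 32.5 under siTsg101#1, 25.1, 25.5 and 27.4 under siTsg101#2, 28.4, 28.6 and 26.6 under siVps28#1, and 22.1, 26.1 and 20.5 under siVps28#2 CPM. Its on-target values were all below siCtrl#1, and siTsg101#1 replicate 2 was just above siCtrl#2 replicate 3. The mean log2 change of POLE was -0.90 ± 0.12 (edgeR adjusted p = 1.37e-05). POLD1, the catalytic subunit of the lagging strand polymerase, was at 97.2, 60.9 and 75.6 under siCtrl#1, 57.6, 46.1 and 43.9 under siCtrl#2, 26.6, 42.8 and 35.6 under siTsg101#1, 43.8, 48.4 and 45.2 under siTsg101#2, 47.6, 38.2 and 38.5 under siVps28#1, and 36.4, 43.1 and 33.1 under siVps28#2 CPM. POLD1 stood near the on-target level in siCtrl#2 replicates 2 and 3. Its change was -0.97 ± 0.14 against siCtrl#1 (edgeR adjusted p = 2.49e-05) and -0.30 against siCtrl#2, where it was no longer called. With siCtrl#2 itself POLD1 changed by -0.67 ± 0.19 (edgeR adjusted p = 0.0655), and 6.9% of its 50-base stretches occur in other genes' transcripts.

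POLD2, an accessory subunit of the same polymerase, was at 415, 331 and 339 under siCtrl#1, 359.5, 240.2 and 284 under siCtrl#2, 233, 270.3 and 259.7 under siTsg101#1, 316, 208 and 340.1 under siTsg101#2, 275, 319 and 320.5 under siVps28#1, and 271, 313 and 325 under siVps28#2 CPM. Of its 12 on-target libraries 11 lay below all siCtrl#1 libraries, and siCtrl#2 covered most of the on-target range. Its mean change was -0.34 ± 0.14 (edgeR adjusted p = 0.082). POLA1, the catalytic subunit of polymerase alpha, which lays down the first DNA after the primer, was at 26.7, 37.2 and 26.2 under siCtrl#1, 23.5, 32.4 and 34.7 under siCtrl#2, 24.1, 20.5 and 17.9 under siTsg101#1, 24.03, 24.3 and 20.6 under siTsg101#2, 27.00, 27.9 and 21.8 under siVps28#1, and 12.2, 16.4 and 6.94 under siVps28#2 CPM. The siVps28#2 libraries of POLA1 were the lowest 3 of the 18, whereas siVps28#1 overlapped the nontargeting groups. Its mean change was -0.62 ± 0.18 (edgeR adjusted p = 0.0149), and -0.45 without siCtrl#1 replicate 2, where it was not called. Among single siRNAs POLA1 was called lower with siVps28#2 alone (-1.33 ± 0.24; edgeR adjusted p = 0.000536), and the siVps28#1 minus siVps28#2 difference was 1.10 ± 0.24 (edgeR adjusted p = 0.0434). The other changes were -0.77 for POLA2, -0.84 for PRIM1, -0.92 for POLE2 and -0.70 for POLD3, all called lower in edgeR. With siCtrl#2 as the reference PRIM1 changed by -0.47 (edgeR adjusted p = 0.171), POLE2 by -0.36 (edgeR adjusted p = 0.382) and POLD3 by -0.28 (edgeR adjusted p = 0.499). POLD3 was also not called against both nontargeting siRNAs (edgeR adjusted p = 0.0557). Of these genes, POLA2 and PRIM1 share 16.8% and 12.2% of their 50-base stretches with other transcripts.

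The clamp, clamp loader and RPA genes had a median change of -0.66, with 6 of 8 members lower and none called with all 4 siRNAs. With the replicate number as a block PCNA, RFC2 and RFC4 were called with all 4. The -0.66 was the smallest of the 7 subgroup medians against siCtrl#1, but with siCtrl#2 as the reference the median was -0.43 here and -0.41 for polymerases and primase. PCNA, the ring that holds polymerases on DNA, was at 226, 181 and 122 under siCtrl#1, 135, 206 and 109 under siCtrl#2, 63.03, 126 and 60.3 under siTsg101#1, 97.8, 109 and 66.5 under siTsg101#2, 114, 113 and 67.3 under siVps28#1, and 107, 104 and 52.2 under siVps28#2 CPM. Its replicates spread widely in every group, and siTsg101#1 replicate 2 was above siCtrl#1 replicate 3. PCNA changed by -0.97 ± 0.23 (edgeR adjusted p = 0.00316), and by -0.75 without siCtrl#1 replicate 1, where it was no longer called. RPA2, part of the single strand binding protein RPA, was at 84.8, 71.9 and 46.7 under siCtrl#1, 52.8, 65.6 and 51.3 under siCtrl#2, 35.6, 59.04 and 36.2 under siTsg101#1, 35.9, 43.6 and 32.9 under siTsg101#2, 51.1, 54.5 and 46.5 under siVps28#1, and 36.5, 42.96 and 27.1 under siVps28#2 CPM. The siTsg101#2 and siVps28#2 libraries of RPA2 lay below all nontargeting libraries, and siTsg101#1 and siVps28#1 overlapped them. Its change was -0.70 ± 0.17 (edgeR adjusted p = 0.00361), -0.51 without siCtrl#1 replicate 1 and -0.45 with siCtrl#2 as the reference, and was not called in either.

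RFC1, the large subunit of the clamp loader, was at 53.2, 56.6 and 55.6 under siCtrl#1, 54.6, 69.1 and 56.9 under siCtrl#2, 40.5, 47.8 and 36.6 under siTsg101#1, 65.5, 73.8 and 53.7 under siTsg101#2, 54.00, 51.6 and 37.5 under siVps28#1, and 38.8, 51.05 and 56.9 under siVps28#2 CPM. Its siTsg101#2 replicates 1 and 2 were among the higher values and its siTsg101#1 libraries among the lower. RFC1 was not called against siCtrl#1 on average (-0.14 ± 0.14; edgeR adjusted p = 0.513), but differed between the siTsg101 siRNAs by -0.63 ± 0.18 (edgeR adjusted p = 0.0327). RFC2, a small subunit of the loader, was at 71.4, 80.8 and 69.2 under siCtrl#1, 63.9, 59.4 and 50.1 under siCtrl#2, 36.8, 60.4 and 49.4 under siTsg101#1, 45.1, 59.2 and 48.04 under siTsg101#2, 35.7, 43.7 and 25.9 under siVps28#1, and 36.5, 47.6 and 48.2 under siVps28#2 CPM. Its siVps28#1 libraries held the lowest value, and all on-target libraries lay below siCtrl#1. RFC2 changed by -0.73 ± 0.15 (edgeR adjusted p = 0.000856) and by -0.38 with siCtrl#2 as the reference, where it was no longer called. RFC3, RFC4 and RPA1 changed by -0.62, -0.83 and -0.38 and were all called lower.

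RFC5, a further small subunit of the clamp loader, went against the rest of the set. It lies on GRCh37 at chr12:118451393-118470935 on the plus strand. RFC5 was at 7.71, 8.91 and 3.93 under siCtrl#1, 3.79, 5.94 and 2.51 under siCtrl#2, 13.5, 20.99 and 14.2 under siTsg101#1, 14.3, 19.5 and 14.8 under siTsg101#2, 3.19, 3.12 and 3.21 under siVps28#1, and 4.06, 3.47 and 4.17 under siVps28#2 CPM. All 6 siTsg101 libraries lay above all other 12 libraries, and the siVps28 libraries lay at or below the middle of the nontargeting ones. The log2 change was 1.29 ± 0.29 with siTsg101#1 (edgeR adjusted p = 0.0022) and 1.29 ± 0.29 with siTsg101#2 (edgeR adjusted p = 0.00249). It was -1.06 ± 0.35 with siVps28#1 (edgeR adjusted p = 0.0618) and -0.76 ± 0.32 with siVps28#2 (edgeR adjusted p = 0.12). RFC5 was measured with 11 to 125 counts per library, and 346 of its exon bases overlap WSB2 and ENSG00000277873 on the other strand, whose reads the counting may not separate.

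**Figure D4:**
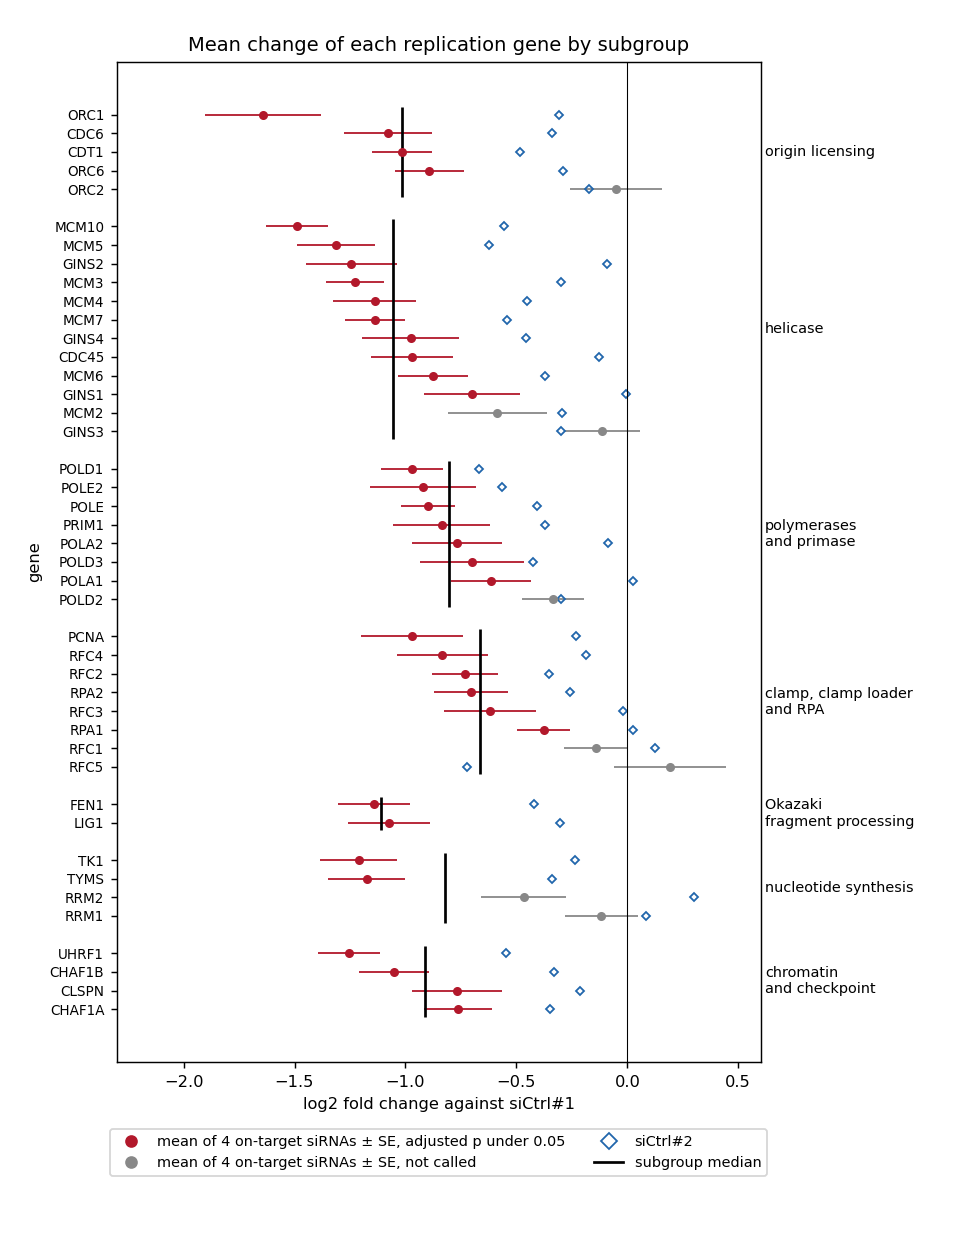
Log2 change against siCtrl#1 of each member by subgroup, averaged over the on-target siRNAs ± SE (filled; red where adjusted p was under 0.05), with siCtrl#2 (open diamonds) and the subgroup median (black line). Subgroup medians run from -1.11 for Okazaki fragment processing to -0.66 for the clamp, clamp loader and RPA genes, and most diamonds lie nearer 0 than the filled points.

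Both genes that process lagging strand (Okazaki) fragments were lower with every siRNA, with a median of -1.11. FEN1, the nuclease that trims the primer flap, was at 118, 99.9 and 66.3 under siCtrl#1, 90.95, 60.7 and 60.1 under siCtrl#2, 33.1, 45.7 and 38.95 under siTsg101#1, 50.4, 64.6 and 45.4 under siTsg101#2, 40.9, 46.6 and 40.1 under siVps28#1, and 40.8, 43.1 and 27.4 under siVps28#2 CPM. LIG1, the ligase that seals the nick, was at 91.1, 102 and 67.7 under siCtrl#1, 76.8, 80.97 and 53.4 under siCtrl#2, 36.8, 58.8 and 25.97 under siTsg101#1, 47.3, 40.01 and 34.4 under siTsg101#2, 40.1, 55.95 and 32.97 under siVps28#1, and 36.7, 48.4 and 37.1 under siVps28#2 CPM. All on-target values were below siCtrl#1 in both genes, while siCtrl#2 overlapped the upper on-target values. FEN1 changed by -1.14 ± 0.16 (edgeR adjusted p = 1.9e-05) and LIG1, with 425 exon bases shared with an antisense neighbour, by -1.07 ± 0.18 (edgeR adjusted p = 0.000162).

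The nucleotide synthesis genes were divided in the fit against siCtrl#1 without the block. The thymidine genes TYMS and TK1 were lower with all 4 siRNAs, whereas RRM1 and RRM2, the subunits of ribonucleotide reductase, were not called on average. TYMS, the enzyme that makes thymidylate from deoxyuridylate, was at 272, 329.9 and 203 under siCtrl#1, 248, 239 and 149 under siCtrl#2, 113, 144 and 85.3 under siTsg101#1, 114, 115 and 87.3 under siTsg101#2, 163, 183 and 101 under siVps28#1, and 120.2, 124 and 90.6 under siVps28#2 CPM. TK1, the kinase that salvages thymidine, was at 126, 190.0 and 103 under siCtrl#1, 162, 108 and 84.6 under siCtrl#2, 47.1, 68.5 and 40.6 under siTsg101#1, 58.8, 69.8 and 60.5 under siTsg101#2, 70.3, 67.00 and 60.9 under siVps28#1, and 52.95, 76.00 and 53.1 under siVps28#2 CPM. For TK1 all 12 on-target libraries lay below the nontargeting ones, and for TYMS siVps28#1 replicates 1 and 2 lay above siCtrl#2 replicate 3. TYMS changed by -1.17 ± 0.17 (edgeR adjusted p = 3.12e-05) and TK1 by -1.21 ± 0.17 (edgeR adjusted p = 2.25e-05). TYMS shares 1160 exon bases with the antisense genes ENOSF1 and TYMSOS.

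RRM1 was at 94.04, 71.3 and 78.3 under siCtrl#1, 75.5, 97.1 and 85.96 under siCtrl#2, 61.8, 107 and 65.3 under siTsg101#1, 87.7, 117 and 74.1 under siTsg101#2, 90.3, 75.2 and 55.6 under siVps28#1, and 61.6, 55.4 and 60.2 under siVps28#2 CPM. The siTsg101 libraries of RRM1 covered the nontargeting range, and the siVps28#2 libraries were among the lowest. Its mean change was -0.12 ± 0.17 (edgeR adjusted p = 0.657). RRM2 changed by -0.47 ± 0.19 against siCtrl#1 (edgeR adjusted p = 0.0802), and was called with siVps28#2 alone (-0.74 ± 0.25; edgeR adjusted p = 0.0489). RRM2 was higher with siCtrl#2 than with siCtrl#1 in sign (0.30 ± 0.25, edgeR adjusted p = 0.627). With siCtrl#2 as the reference the mean of the on-target siRNAs was called lower for RRM2 (-0.77). It was also called lower against both nontargeting siRNAs (-0.62) and with the replicate number as a block (-0.48).

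All 4 chromatin and checkpoint genes were lower on average, with a median of -0.91. UHRF1, which recognises newly copied, hemimethylated DNA, was at 278, 337 and 227 under siCtrl#1, 261, 163 and 153 under siCtrl#2, 170.3, 149 and 121 under siTsg101#1, 113, 104 and 111 under siTsg101#2, 121, 118 and 135 under siVps28#1, and 90.1, 115 and 84.3 under siVps28#2 CPM. All on-target values were below siCtrl#1, and siCtrl#2 replicates 2 and 3 overlapped siTsg101#1. UHRF1 changed by -1.25 ± 0.14 (edgeR adjusted p = 1.15e-06), and 20.2% of its 50-base stretches occur in other transcripts. CHAF1A and CHAF1B encode subunits of the factor that places histones on new DNA.

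CHAF1A was at 90.2, 86.1 and 70.3 under siCtrl#1, 80.1, 51.5 and 62.1 under siCtrl#2, 42.2, 70.3 and 47.2 under siTsg101#1, 52.3, 55.6 and 55.02 under siTsg101#2, 46.5, 49.5 and 50.4 under siVps28#1, and 36.7, 49.4 and 29.5 under siVps28#2 CPM. CHAF1B was at 57.8, 52.9 and 40.2 under siCtrl#1, 41.2, 45.6 and 32.96 under siCtrl#2, 19.6, 28.1 and 18.3 under siTsg101#1, 28.4, 29.4 and 19.3 under siTsg101#2, 22.6, 29.8 and 20.1 under siVps28#1, and 25.5, 27.1 and 22.04 under siVps28#2 CPM. CHAF1B separated all on-target from all nontargeting libraries, and CHAF1A did not, with siTsg101#1 replicate 2 equal within rounding to siCtrl#1 replicate 3. The changes were -0.76 ± 0.15 for CHAF1A (edgeR adjusted p = 0.000754) and -1.05 ± 0.16 for CHAF1B (edgeR adjusted p = 3.61e-05). With siCtrl#2 as the reference CHAF1A changed by -0.42 and was not called. CLSPN, a mediator of the replication checkpoint, changed by -0.77 ± 0.20 (edgeR adjusted p = 0.00761) and was called with both siTsg101 siRNAs and with neither siVps28 siRNA, whereas the replicate block gave a call with all 4. With siCtrl#2 as the reference CLSPN changed by -0.55 (edgeR adjusted p = 0.0691).

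Whether depletion of either subunit gave the same levels was tested directly, as the mean of the siTsg101 groups minus the mean of the siVps28 groups. Of 43 members, RFC5 was called higher after Tsg101 depletion (2.20 ± 0.22; edgeR adjusted p = 1.9e-07) and 0 were called lower, against 6.56% and 5.26% of all targets. At an unadjusted p under 0.05, 1 member was lower (MCM10) and 4 were higher (RFC5, RFC2, RRM1 and CHAF1A). The share of all targets at that threshold is not given here either. DESeq2 likewise called RFC5 alone, where 721 of all 10212 targets were higher. MCM10 differed by -0.39 ± 0.14 (edgeR adjusted p = 0.0678) and was called lower with the replicate number as a block. RRM1 differed by 0.37 ± 0.15 (edgeR adjusted p = 0.11), RFC2 by 0.35 ± 0.14 (edgeR adjusted p = 0.114) and CHAF1A by 0.31 ± 0.14 (edgeR adjusted p = 0.174). The median difference of the members was 0.067 and the lowest was -0.39. The SE of single members lay between 0.11 and 0.28. As the -0.39 ± 0.14 of MCM10 was not called in this fit, differences larger than the SE could also be missed.

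**Figure D5:**
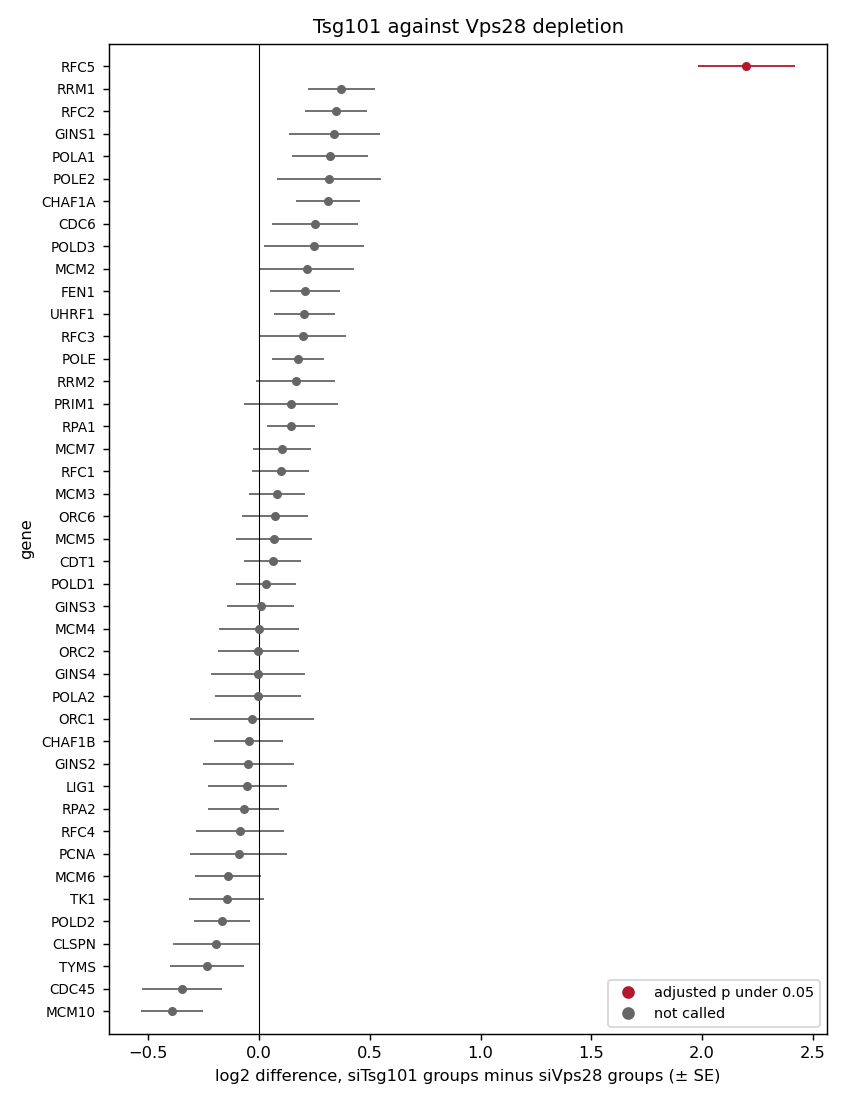
Log2 difference between the siTsg101 and the siVps28 groups (± SE) for each tested member, sorted. RFC5 alone stands apart at 2.20, and the other members lie between -0.39 and 0.37.

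The siRNAs against the same subunit were compared in the same way. Between siTsg101#1 and siTsg101#2, MCM10 and RFC1 were called (7.96% of all targets in either direction). Without siTsg101#1 replicate 1, siTsg101#1 replicate 3 or siTsg101#2 replicate 1 neither was called, without siTsg101#2 replicate 2 only MCM10 was, and without siTsg101#2 replicate 3 only RFC1. Between siVps28#1 and siVps28#2, POLA1 was called (0.48% of all targets), and leaving out single libraries ended this call in 12 of 18 cases, with differences between 0.83 and 1.20. The call was kept without siCtrl#1 replicate 2, siCtrl#2 replicate 1 or 3, siTsg101#1 replicate 2, siTsg101#2 replicate 2 or siVps28#2 replicate 2.

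Related genes outside the set were described by lists from general knowledge, which were also chosen with earlier results of these data known. The values were again averaged over the on-target siRNAs and set against siCtrl#1, where 11.5% of all targets were lower and 12.2% higher. Of 28 tested other replication factors (ORC4 of the 29 listed was not tested), 19 were lower and 2 higher (POLD4 and ASF1A), with a median of -0.61. ATAD5, which unloads PCNA, changed by -1.15 ± 0.20, DSCC1, part of an alternative clamp loader, by -1.03 ± 0.28, and RECQL4, a helicase, by -1.02 ± 0.16. Without siCtrl#1 replicate 1 DSCC1 changed by -0.73 and was not called. Of 21 other nucleotide genes 9 were lower and 0 higher, with a median of -0.27. DCTPP1, which clears unusual nucleotides, changed by -1.04 ± 0.16, and SHMT1, a folate enzyme, by -0.88 ± 0.15. SHMT1 changed by -0.15 with siCtrl#2 as the reference and was not called.

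Among 15 E2F and G1/S regulators 3 were lower (E2F1, CCND1 and CDK2) and 2 higher (CDKN1A and CCNE1), with a median of -0.28. The share lower was 20%, against 11.5% of all targets, which rests on few genes. The 2 higher of 15 are near the 12.2% of all targets. E2F1, an activator of S phase genes, changed by -1.09 ± 0.23, CCND1, cyclin D1, by -0.85 ± 0.13, and CDKN1A, an inhibitor of cyclin-dependent kinases, by 0.88 ± 0.14. CDKN1A was at 503 ± 38.5 CPM with siCtrl#1 and 812 ± 147 CPM with siCtrl#2 (mean ± SD, n = 3), and at 972 ± 228, 816 ± 52.5, 1008 ± 113 and 909 ± 68.0 CPM with siTsg101#1, siTsg101#2, siVps28#1 and siVps28#2. It was higher with siCtrl#2 than with siCtrl#1 (0.69; edgeR adjusted p = 0.0303), and with siCtrl#2 as the reference the on-target change was 0.19 and not called. With siCtrl#2 CDKN1A was thus called higher, while 38 of 43 members were lower in sign and 0 were called, and the part of CDKN1A in the replication gene values was not tested. Of 24 mitosis genes 20 were lower and 0 higher, with a median of -0.66, including CCNA2 (cyclin A, -1.29 ± 0.15), KIF20A (a mitotic kinesin, -1.22 ± 0.24) and AURKA (a mitotic kinase, -1.15 ± 0.21). The siRNAs differed in these 24 genes. With siTsg101#1 19 were lower (12.5% of all targets) and 1 higher (13.8%), and with siTsg101#2 9 were lower (9.09%). With siVps28#1 9 were lower (4.07%) and with siVps28#2 22 (6.85%). Between the siTsg101 siRNAs 4 of them were called (7.96% of all targets in either direction). The part of the number of dividing cells in these values was not tested.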

How the data were processed

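RNA of 18 libraries from RKO cells (6 siRNA groups of 3 replicates) was measured with an Ion AmpliSeq transcriptome panel, which amplifies 1 short stretch per targeted transcript, and sequenced on the Ion Proton. Alignment by the authors used TMAP and an hg19 transcript reference made for the panel, and counting used HTSeq 0.6.0 per the labels. They deposited whole-number counts per target and library, not normalized. The strand setting is not given in the sources used here, levels cannot be compared between genes, and reads carry no molecular identifiers.

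Of 20802 targets, 20228 were matched to a symbol in a RefSeq table (GRCh38.p14, used for names and for promoter letters). Spike-in rows and reads on no feature (48.23% to 49.07% of reads per library) were left out. Targets with more than 100 counts over all libraries and not of a noncoding type were tested (10212). Groups came from the labels. After TMM normalization a single model of all 6 groups was fitted in edgeR 4.0.16 (R 4.3.3), with the quasi-likelihood test and Benjamini-Hochberg adjustment over all 10212 targets, called at an adjusted p under 0.05. The SE is the log2 change divided by the root of the F statistic, in size. Fits were tested on simulated data. The unit of the values in single libraries is CPM with TMM factors, computed from the counts. Gene positions are from GENCODE on GRCh37, and sequence shared between genes was counted over whole transcripts in 50-base stretches.

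The replicate number is given as the batch in the labels and so pairs the libraries. Deviations from the group means correlated by 0.14 on average between libraries of the same number (45 pairs, -0.15 to 0.39) and by -0.073 between different numbers (90 pairs). The main fit left the block out. P-values measure the spread between 3 replicates of each siRNA.

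Values in every library are given for 30 members, namely the members with the largest and the smallest mean change in each subgroup, those that every on-target siRNA called the same way, and those with the smallest p-values between Tsg101 and Vps28 depletion (5), between siRNAs of the same target and between the nontargeting siRNAs (3 each). The members and all gene lists were chosen with earlier results of these data known. The value of 1 gene outside the set is not reported here. Alternatives were DESeq2 1.42.0, RLE size factors, library size alone, noncoding targets kept, no filter on low counts, a minimum of 10 counts per library, another reference (siCtrl#2, or both controls), the replicate block, a fit of only the groups compared, an added minimum of 1.5-fold, and each library left out in turn.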

Additional observations from a re-analysis of the deposited data

Results flagged for a closer look

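Between siRNAs against the same complex or the same target, 4 members differed in a test of the difference itself. RFC5 was 2.20 higher on the log2 scale after Tsg101 than after Vps28 depletion. MCM10 and RFC1 differed between siTsg101#1 and siTsg101#2 by -0.75 and -0.63, and POLA1 differed between siVps28#1 and siVps28#2 by 1.10. What lies behind these differences was not tested.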

How the results depend on the processing

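The mean change of the members kept its direction under every alternative run, with 27 to 37 of the tested members lower. Tested were 43 members, or 42 with at least 10 counts in every library, where ORC1 was left out. With siCtrl#2 as the reference 15, 15, 6 and 22 members were lower with siTsg101#1, siTsg101#2, siVps28#1 and siVps28#2, and 3 were lower with all 4. RFC5 was the 1 member higher on average there (8.33% of all targets). It was also the 1 member higher with both nontargeting siRNAs as the reference (1528 of all 10212 targets). For siCtrl#2 against siCtrl#1, 1 member was lower in DESeq2 (1.21% of all targets). With no low-count filter (0.883%) or with the replicate block (1.32%) 2 were. Lower after Tsg101 than after Vps28 depletion was 1 member (MCM10) in 3 alternatives. These were no low-count filter (3.99% of all targets), the replicate block (6.83%) and only the groups compared in the fit (5.57%). With no low-count filter 2 members (RFC5 and RRM1) were higher, against 771 of all 14157 targets. Between the siVps28 siRNAs 0 members differed with library size alone or with only the groups compared in the fit. The cause of these shifts was not tested.

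Leaving out each library in turn gave 18 to 31 lower members with siTsg101#1, 17 to 30 with siTsg101#2, 13 to 26 with siVps28#1, 24 to 35 with siVps28#2, 27 to 36 for the mean and 12 to 22 for all 4. It gave 0 to 5 lower with siCtrl#2 (1 without siCtrl#1 replicate 2), 0 to 1 lower after Tsg101 than after Vps28 depletion, 0 to 3 different between the siTsg101 siRNAs and 0 to 1 between the siVps28 siRNAs. Fewer libraries per group also lower the power of each fit, and the number of all targets called moved as well.

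With the replicate number as a block, 32, 33, 33 and 36 members were lower with the single siRNAs (14.4%, 11.4%, 5.57% and 8.63% of all targets). With all 4 there were 28 (2.71%). Apart from the calls named here and in the results the block changed no call of the mean change among the members. With at least 10 counts in every library TSG101 and ORC1 were not tested. Of the single genes named, no value reversed in sign with a call, and 32 of the values recomputed under the alternatives lost the call. Members with few counts (RFC5, ORC1, POLE2) are among those with the largest errors.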
